A study of Solanum lycopersicum with 8 samples.

Results

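Pathogenesis-related (PR) proteins are a set of plant proteins that accumulate when leaves are infected or stressed, and 8 tomato genes for them are described here, out of 34722 gene identifiers in the count table. They were taken by identifier from a set drawn up with earlier results of these data known, and comprise 3 PR1 genes, 1 beta-1,3-glucanase gene, 1 chitinase gene and 3 PR5 (osmotin) genes. These classes were given with the gene set. Neither the count table nor the reference gene table used here (41476 genes) pairs any of the 8 identifiers with a name, so the classes, and the acidic type given for the chitinase, were not checked. The PR5 genes carry chromosome 8 in their identifiers, the chitinase gene chromosome 10, the glucanase gene and a PR1 gene chromosome 1 and another PR1 gene chromosome 9, whereas Solyc00g174340.1 (PR1) carries no numbered chromosome.

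RNA was sequenced from young leaves of tomato seedlings of the cultivar M82 and of the procera mutant pro∆GRAS (the mutant), which the count table calls null. The product of PROCERA is tomato DELLA, which holds back responses to gibberellin (GA). Every seedling, in all 4 groups, had received paclobutrazol, an inhibitor of GA synthesis, at 10 mg/l once a day for 3 days, so no group shows leaves with their own GA supply. In each genotype 1 group then received a single application of 100 µM GA3 and was collected 3 hours later, and the other received none. Each group held 2 libraries, which the series design text gives as biological replicates. Whether these came from single plants or pools and how old the seedlings were is not given in the sources used here. Nor is it given whether the groups without GA3 received a mock application. P-values rest on the spread between these libraries, and how much of it is technical is not known.

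Total counts ran from 14395465 to 18483028 per library. Among the M82 libraries, library 3 of the group without GA and library 2 of the GA group had the lowest scores on the first principal component, at -67.4 and -53.8. Their top 100 genes held 45.5% and 50.3% of all reads, and the range was 31.4% to 41.3% for the remaining 6 libraries. The 2 with these high shares are called the M82 libraries that lay apart, and values without them accompany the main M82 results. The first component (36.5% of the variance) separated the genotypes, with M82 at -67.4 to -8.34 and the mutant at 23.4 to 58.1. A low score on it does not by itself mark an unusual library. On the second component, library 1 of M82 without GA stood alone at 65.9, against -30.1 to 23.3 elsewhere. Fold changes without it are also given for the PR genes tested. The leaf identity and the PROCERA transcript were not checked, because identifiers are not paired with names. In leaf RNA, fewer cells of a type and less RNA per cell cannot be told apart.

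PR1 proteins are small secreted proteins whose transcripts are the usual markers of salicylic acid defence. Beta-1,3-glucanases (PR2) and chitinases cut glucan and chitin, polymers of fungal cell walls. PR5 proteins resemble thaumatin, and the osmotins among them were first described in salt-adapted tobacco cells. In Arabidopsis, DELLA proteins shift the balance between jasmonate and salicylic acid signalling.

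Of the 8 genes, 4 passed the filter on low counts and were tested: Solyc00g174340.1 (PR1), Solyc10g055810.1 (chitinase), and Solyc08g080640.1 and Solyc08g080650.1 (PR5). The other 4 had 25 reads or fewer over all 8 libraries. Levels are CPM, counts per 1000000 reads of a library size scaled with TMM factors, and they are not per length, so they are compared between libraries and not between genes. PR genes form families of similar sequence, and the counting options are not given in the sources used here, so reads shared by copies could be split between them. The level of a single gene is to that extent uncertain.

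Solyc00g174340.1 (PR1) had its highest levels in M82 without GA, at 7.57 CPM in library 1 and 5.81 CPM in library 3. In M82 with GA it was at 0.442 CPM in library 1 and 1.61 CPM in library 2. In the mutant it was at 0.0518 and 2.02 CPM without GA, in libraries 1 and 3, and at 0.663 and 0.425 CPM with GA. The M82 libraries without GA thus lay above the other 6, which overlapped one another. It held 10 or more reads in 5 libraries, of all 4 groups, so its passing the filter did not rest on 1 group.

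By group mean, Solyc00g174340.1 stood at 6.69 ± 1.25 CPM (SD, n = 2) in M82 without GA, 1.03 ± 0.829 in M82 with GA, 1.03 ± 1.39 in the mutant without GA and 0.544 ± 0.168 in the mutant with GA. The last 3 means do not differ beyond the spread between their libraries. The fitted log2 fold change with GA in M82 was -2.73 (SE 0.991, 95% interval -4.96 to -0.50), at an unadjusted p of 0.0215 and an adjusted p of 0.582 over 18340 genes (edgeR). The fitted log2 fold change of the mutant against M82 without GA was -2.70 (SE 0.978, 95% interval -4.90 to -0.51), at an unadjusted p of 0.0211 and an adjusted p of 0.365 (edgeR), or 0.0884 with DESeq2. Neither met the threshold of an adjusted p under 0.05. Both comparisons use the same 2 M82 libraries without GA. Without library 1 of these, the log2 fold changes were -2.52 for GA in M82 and -2.50 for genotype without GA. Without the 2 M82 libraries that lay apart, these values were -4.07 and -2.88, and the adjusted p-values were 0.982 and 0.604 (edgeR).

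**Figure D1:**
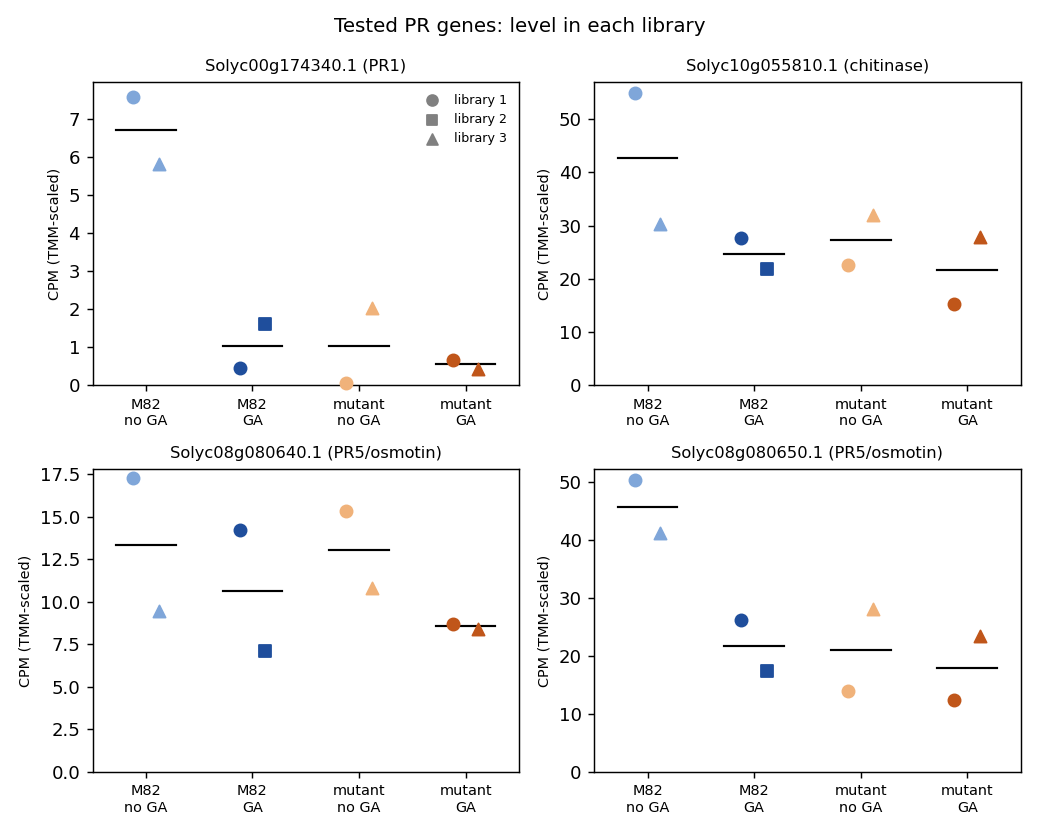
Level of the 4 tested PR genes in each library, in TMM-scaled CPM on axes that start at 0, by genotype and GA treatment. Points are libraries, with the marker giving the library number, and lines are means of 2 libraries. The PR1 gene is at 7.57 and 5.81 CPM in M82 without GA and at 2.02 CPM or less in the other 6 libraries.

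The widest gap between replicate libraries belonged to the same gene. Solyc00g174340.1 had 1 read in mutant library 1 without GA (exact Poisson 95% interval 0.0253 to 5.57, counting error only) and 36 reads in mutant library 3 without GA (25.2 to 49.8). These libraries held 18483028 and 17782393 counts in all, so the gap did not come with a gap in depth. On the log2 scale with a prior count of 2 the libraries differed by 3.66, and 0.0436% of the 18340 tested genes differed at least as far between them. Without mutant library 3, where the remaining mutant library without GA holds 1 read, the fitted genotype difference without GA was -6.82 (adjusted p = 0.134, edgeR). Without mutant library 1 it was -1.72 (adjusted p = 0.735, edgeR).

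Solyc09g007010.1 (PR1) was read 14 and 4 times in M82 without GA, in libraries 1 and 3, and 1 and 4 times with GA, in libraries 1 and 2. In the mutant it was read 0 and 1 times without GA and 1 and 0 times with GA. The M82 libraries held 23 of its 25 reads, and M82 library 1 with GA, at 1 read, overlapped the mutant. Over both treatments its level was 0.393 ± 0.367 CPM (SD, n = 4) in the M82 libraries and 0.0258 ± 0.0300 CPM (SD, n = 4) in the mutant libraries. The ratio of pooled reads per depth was 14.8 (exact 95% interval 3.65 to 129, counting error only). Without M82 library 1 without GA, which held 14 of the 23 M82 reads, it was 7.76 (exact 95% interval 1.61 to 73.8), and without mutant library 3 without GA, which held 1 of the 2 mutant reads, it was 22.7 (3.68 to 935). An exact two-sided permutation test over all 70 ways to assign 4 of the 8 libraries to a genotype gave p = 0.0571, where the smallest possible p is 0.0286. This test was chosen after seeing the data and was run on 3 genes, and adjusted over these the permutation p was 0.171.

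The third PR1 gene, Solyc01g106620.2, had 1 read in all, in M82 library 1 without GA, and Solyc01g060020.2 (beta-1,3-glucanase) had none in any library. A count of 0 over the 8 libraries allows up to 0.0219 CPM, from 3 reads over their scaled depth. No difference between groups was detectable for either gene at this depth.

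Solyc08g080620.1 (PR5) had most of its reads in the mutant. It was read 6 and 8 times in the mutant without GA, in libraries 1 and 3, and 0 and 9 times with GA. In M82 it was read 1 and 0 times without GA and 1 and 0 times with GA. The mutant held 23 of its 25 reads, and mutant library 1 with GA, at 0 reads, lay within the M82 range. Its levels were 0.309 ± 0.219 CPM in the mutant and 0.0301 ± 0.0350 CPM in M82 (SD, n = 4), a ratio of pooled reads of 8.96 (exact 95% interval 2.21 to 78.4, counting error only). The exact two-sided permutation test gave p = 0.143, or 0.214 adjusted over the genes it was run on. In the edgeR fit without a filter, over 23786 genes, the genotype difference over both treatments had adjusted p = 0.146 for Solyc09g007010.1 and 0.238 for Solyc08g080620.1.

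**Figure D2:**
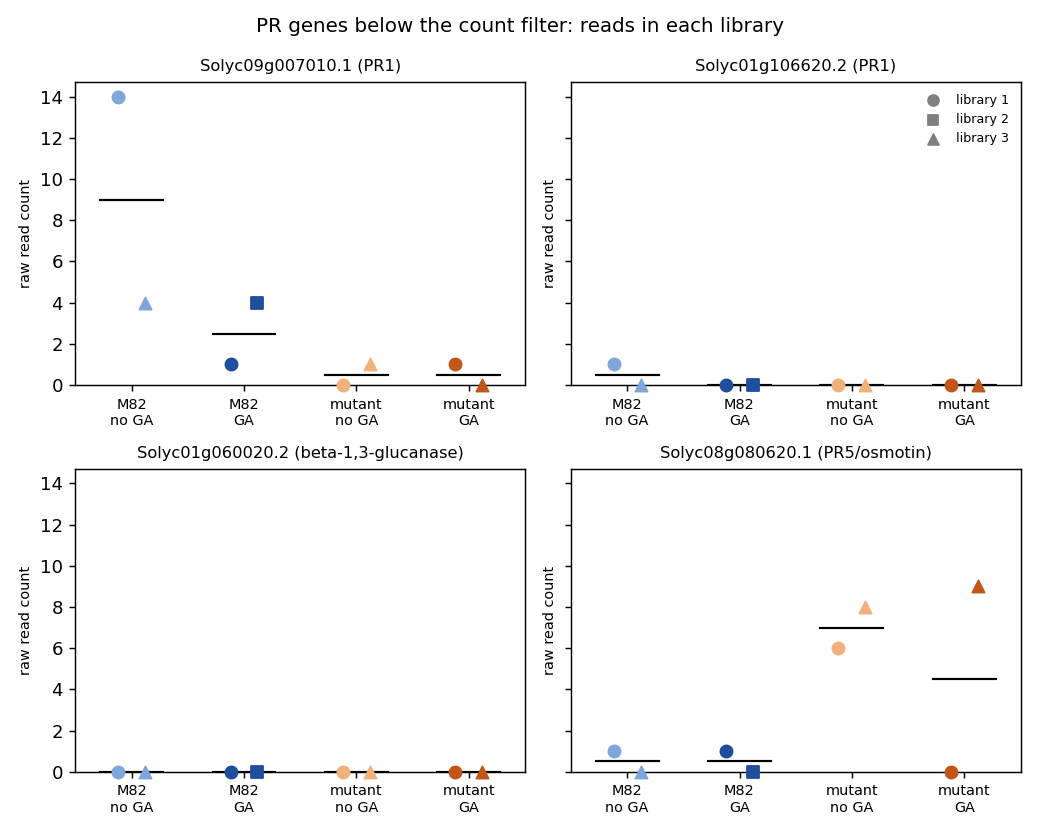
Raw read counts of the 4 PR genes below the count filter in each library, on a shared axis that starts at 0, with lines at the means of 2 libraries. Reads of Solyc09g007010.1 (PR1) lie mostly in M82, with 14 in library 1 without GA, and those of Solyc08g080620.1 (PR5) mostly in the mutant, with up to 9 in a library.

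Solyc10g055810.1 (chitinase) was at 55.0 CPM in M82 library 1 and 30.4 CPM in M82 library 3 without GA, and at 27.6 and 21.8 CPM in M82 libraries 1 and 2 with GA. In the mutant it was at 22.6 and 31.9 CPM without GA and at 15.3 and 27.9 CPM with GA, in libraries 1 and 3. M82 library 1 without GA lay above the other 7, and apart from it the groups lay close together. The M82 groups without and with GA did not overlap, by a margin of 30.4 against 27.6 CPM, but with library totals as the only scaling they did, at 26.1 CPM in M82 library 3 without GA and 28.2 CPM in M82 library 1 with GA. The group means were 42.7 ± 17.4 CPM in M82 without GA, 27.3 ± 6.56 in the mutant without GA, 24.7 ± 4.16 in M82 with GA and 21.6 ± 8.95 in the mutant with GA (SD, n = 2), and no neighbours in this order differed beyond their spread. The log2 fold change with GA in M82 was -0.79 (SE 0.367, 95% interval -1.61 to 0.033; edgeR adjusted p = 0.665), and it was -0.29 without M82 library 1 without GA. The genotype difference without GA was -0.65 (SE 0.365, 95% interval -1.47 to 0.17; edgeR adjusted p = 0.628). Without M82 library 1 without GA it was -0.15 (edgeR adjusted p = 0.875). Without the 2 M82 libraries that lay apart the values for GA in M82 and genotype without GA were -0.99 and -1.01, at adjusted p-values of 0.982 and 0.453 (edgeR).

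The other PR5 genes follow each other in identifier number. Solyc08g080650.1 was at 50.4 and 41.3 CPM in M82 without GA, in libraries 1 and 3, and at 26.2 and 17.4 CPM with GA, in libraries 1 and 2. In the mutant it was at 13.98 and 28.1 CPM without GA and 12.4 and 23.5 CPM with GA, in libraries 1 and 3. As with Solyc00g174340.1 (PR1), the M82 libraries without GA lay above the other 6, which overlapped.

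The group means of Solyc08g080650.1 were 45.8 ± 6.47, 21.8 ± 6.22, 21.0 ± 9.99 and 17.9 ± 7.88 CPM (SD, n = 2) in M82 without and with GA and in the mutant without and with GA. The last 3 did not differ beyond the spread between libraries. The log2 fold change with GA in M82 was -1.07 (SE 0.397, 95% interval -1.96 to -0.18), at an unadjusted p of 0.0232 and an adjusted p of 0.590 (edgeR). That of the mutant against M82 without GA was -1.12 (SE 0.397, 95% interval -2.01 to -0.24), at an unadjusted p of 0.0184 and an adjusted p of 0.340 (edgeR), or 0.171 with DESeq2. Without M82 library 1 without GA, these log2 fold changes were -0.92 for GA in M82 and -0.97 for genotype without GA. Without the 2 M82 libraries that lay apart the values were -0.94 and -1.26, with adjusted p-values of 0.982 and 0.511 (edgeR).

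Solyc08g080640.1 (PR5) was at 17.3 and 9.45 CPM in M82 without GA, 14.2 and 7.09 CPM in M82 with GA, 15.3 and 10.8 CPM in the mutant without GA and 8.72 and 8.40 CPM in the mutant with GA, the first value being library 1 in each pair. Among the groups compared, the mutant groups without and with GA did not overlap and the others did. Its genotype difference without GA was -0.037 (95% interval -0.90 to 0.82), and its log2 fold change with GA was -0.33 in M82 (95% interval -1.19 to 0.54) and -0.61 in the mutant (95% interval -1.47 to 0.25). Without the 2 M82 libraries that lay apart the genotype difference without GA was -0.41 and the change with GA in M82 was -0.28. Without M82 library 1 without GA both changed sign, to 0.47 and 0.18.

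**Figure D3:**
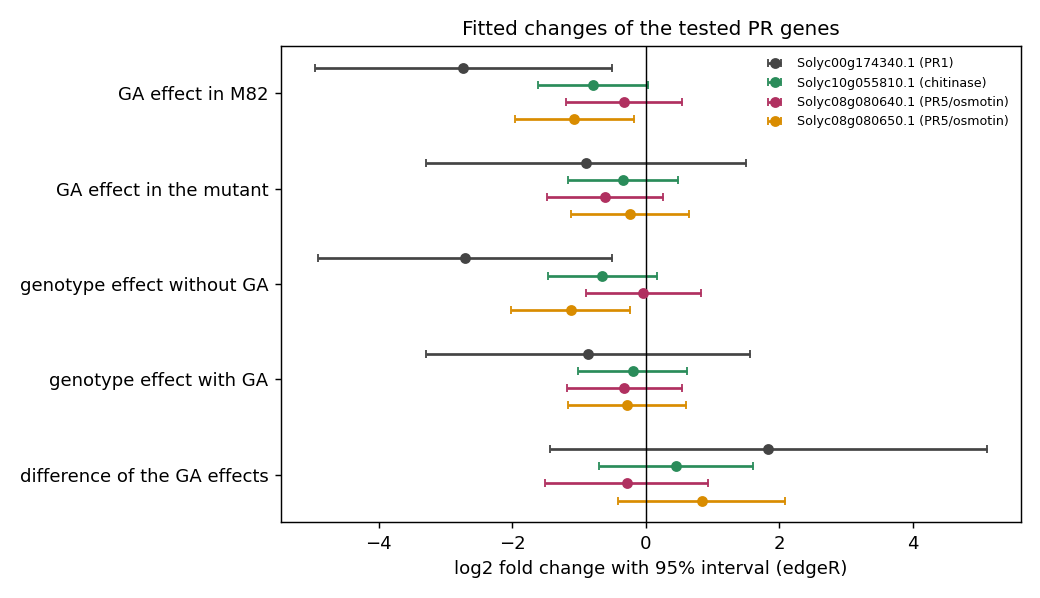
Fitted log2 fold changes of the 4 tested PR genes in 5 comparisons, with 95% intervals from the edgeR fit and a line at 0. Negative values are lower with GA or lower in the mutant, and in the last comparison they mean a lower GA effect in the mutant than in M82. The intervals of Solyc00g174340.1 (PR1) and Solyc08g080650.1 (PR5) lie below 0 for GA in M82 and for genotype without GA, before any adjustment for the number of genes.

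Counted over the comparisons, edgeR's quasi-likelihood test called 0 of the 4 tested PR genes for GA in M82, where 0.0164% of the 18340 tested genes were called. DESeq2 also called 0 of the 4, against 0.589% of tested genes. At an unadjusted edgeR p under 0.05, 2 of the 4 were lower with GA (Solyc00g174340.1 and Solyc08g080650.1), against 3.04% of tested genes. In 3 of the 4 genes the M82 groups did not overlap, with the GA libraries lower, against 16.6% of tested genes. With library totals as the only scaling this held for 2 of the 4, without the chitinase gene, against 15% of tested genes. All 4 had a fitted value below 0, as 50.3% of tested genes had, and their median log2 fold change was -0.93 against -0.0026 for all tested genes.

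For GA in the mutant, edgeR and DESeq2 each called 0 of the 4 genes, against 0% and 0.158% of tested genes, and 0 had an unadjusted edgeR p under 0.05, against 2.67% of tested genes. The groups did not overlap in 1 of the 4, Solyc08g080640.1, lower with GA, against 14.9% of tested genes. The median log2 fold change was -0.47, against -0.0099 for all tested genes. The interaction of GA and genotype, the GA effect in the mutant minus that in M82, was called for 0 of the 4 genes by edgeR and by DESeq2, against 0% and 0.109% of tested genes, and 0 had an unadjusted edgeR p under 0.05, against 3.76%. It was 1.84 for Solyc00g174340.1 (95% interval -1.43 to 5.11) and 0.84 for Solyc08g080650.1 (95% interval -0.41 to 2.09), and both intervals include 0.

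Between the genotypes without GA, edgeR and DESeq2 called 0 of the 4 genes, against 0.393% and 2.25% of tested genes. At an unadjusted edgeR p under 0.05, 2 of the 4 were lower in the mutant, the same 2 genes that had such a p for GA in M82, against 3.65% of tested genes. These comparisons share the M82 libraries without GA, so the values are set side by side and not counted as agreement. The groups did not overlap in 2 of the 4, both lower in the mutant, against 17.6% of tested genes.

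Between the genotypes with GA, edgeR and DESeq2 called 0 of the 4 genes, against 0.354% and 3.01% of tested genes, 0 had an unadjusted edgeR p under 0.05, against 14.7%, and the groups overlapped in all 4, whereas they did not in 49.8% of tested genes. The 95% intervals there were -1.02 to 0.62 for the chitinase gene, -1.19 to 0.55 for Solyc08g080640.1, -1.17 to 0.60 for Solyc08g080650.1 and -3.30 to 1.56 for Solyc00g174340.1. With 2 libraries per group, differences of up to about these sizes are not excluded. The intervals are not adjusted for the number of genes and are not limits of detection.

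To use 4 libraries on each side, the genotypes were also compared over both treatments and GA over both genotypes, comparisons added after seeing the data. Both again include the M82 libraries without GA. In the comparisons that do not use these libraries, genotype with GA and GA in the mutant, the log2 fold changes were -0.87 and -0.89 for Solyc00g174340.1. They were -0.28 and -0.23 for Solyc08g080650.1. For genotype, edgeR and DESeq2 called 0 of the 4 PR genes, against 3.05% and 6.95% of tested genes. The log2 fold change was -1.79 for Solyc00g174340.1 (SE 0.726, edgeR adjusted p = 0.219, DESeq2 adjusted p = 0.0704) and -0.70 for Solyc08g080650.1 (SE 0.280, edgeR adjusted p = 0.207, DESeq2 adjusted p = 0.147), and these 2 had an unadjusted edgeR p under 0.05, against 19.4% of tested genes. Leaving out 1 library at a time, Solyc00g174340.1 ranged from -3.82 to -1.19. It was called without mutant library 3 without GA, which held 36 reads (edgeR adjusted p = 0.0405), and not without any other 1 library, with -1.27 (edgeR adjusted p = 0.268) without mutant library 1 without GA and -1.19 (edgeR adjusted p = 0.613) without M82 library 2 with GA. Without the 2 M82 libraries that lay apart the values were -1.28 for Solyc00g174340.1 and -0.90 for Solyc08g080650.1 (edgeR adjusted p = 0.662 and 0.289). For GA, both tools called 0 of the 4 genes, against 0% (edgeR) and 0.496% (DESeq2) of tested genes. The fitted values ran from -1.81 for Solyc00g174340.1 to -0.47 for Solyc08g080640.1, and 2 had an unadjusted edgeR p under 0.05, against 6.15% of tested genes.

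The side on which library 1 lay was then compared over the groups. The level of Solyc08g080640.1 was higher in library 1 than in the other library of each group, by 0.87, 0.99, 0.50 and 0.052 on the log2 scale in M82 without and with GA and the mutant without and with GA, and 8.85% of tested genes were higher in library 1 in all 4 groups. The chitinase gene and Solyc08g080650.1 were higher in library 1 in both M82 groups and lower in library 1 in both mutant groups, as were 5.66% of tested genes. For Solyc08g080650.1 the log2 differences were 0.29 and 0.59 in M82 and -1.001 and -0.92 in the mutant. The median size of the difference over all tested genes was 0.46 in M82 without GA and 0.31 to 0.34 in the other groups. What the library numbers stand for is not given in the sources used here.

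**Figure D4:**
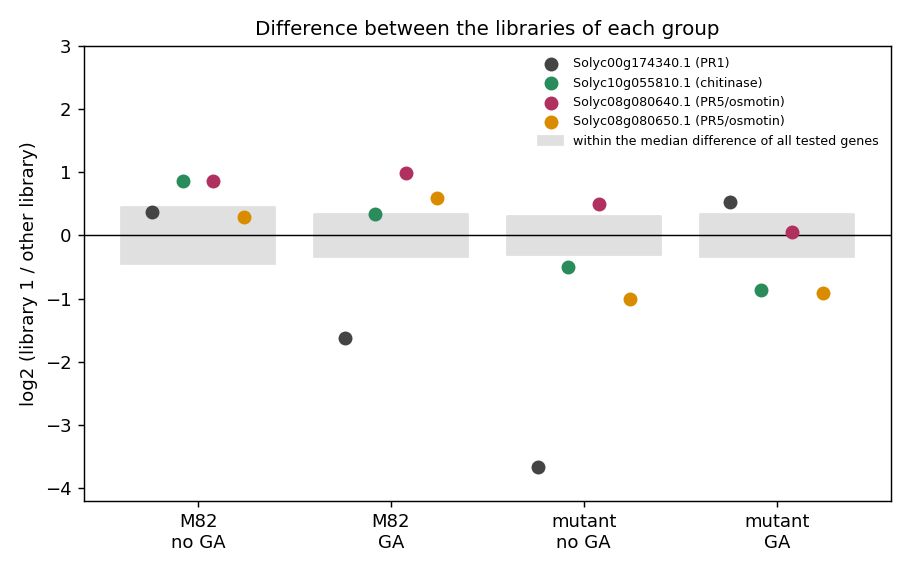
Log2 ratio of library 1 to the other library of the same group (TMM-scaled, prior count of 2) for the 4 tested PR genes; the grey band spans the median size of this ratio over all tested genes. Solyc00g174340.1 (PR1) reaches -3.66 in the mutant without GA, and the chitinase gene and Solyc08g080650.1 (PR5) lie above 0 in M82 and below 0 in the mutant.

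The chitinase gene and Solyc08g080650.1 (PR5) varied together. Over the 8 libraries their log2 CPM had Pearson r = 0.911 (exact permutation p = 0.000471) and Spearman rho = 0.929 (exact permutation p = 0.00223), the highest of the 6 pairs of tested PR genes. Adjusted over the 6 pairs, these p-values were 0.00283 and 0.0134. For every pair the permutation shuffled all 8 libraries without regard to their groups, so differences between groups enter its p-values. Without the 2 libraries farthest from the median of the chitinase gene r was 0.865 (n = 6), and after subtracting group means it was 0.849. The latter rests on a single difference per group, because the 2 libraries of a group then deviate equally in opposite directions. Within M82 and within the mutant r was 0.881 and 0.922 over 4 libraries each, given as a description with no test. Of all other tested genes, 0.0709% had an r to the chitinase gene at least as high, and 0.213% to Solyc08g080650.1. The points share library preparation, depth and scaling, and what moves with both genes was not tested.

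For Solyc00g174340.1 (PR1) and Solyc08g080650.1, r was 0.785 (exact permutation p = 0.0230, adjusted 0.0690) and rho 0.738 (exact permutation p = 0.0458, adjusted 0.137), and without the 2 farthest libraries r was 0.564. The PR5 neighbours Solyc08g080640.1 and Solyc08g080650.1 had r = 0.355 (exact permutation p = 0.377, adjusted 0.453) and rho 0.429 (exact permutation p = 0.299, adjusted 0.359), and without the 2 farthest libraries r was 0.416. The other 3 pairs had r between -0.035 and 0.620, with adjusted exact permutation p-values of 0.192 or more.

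**Figure D5:**
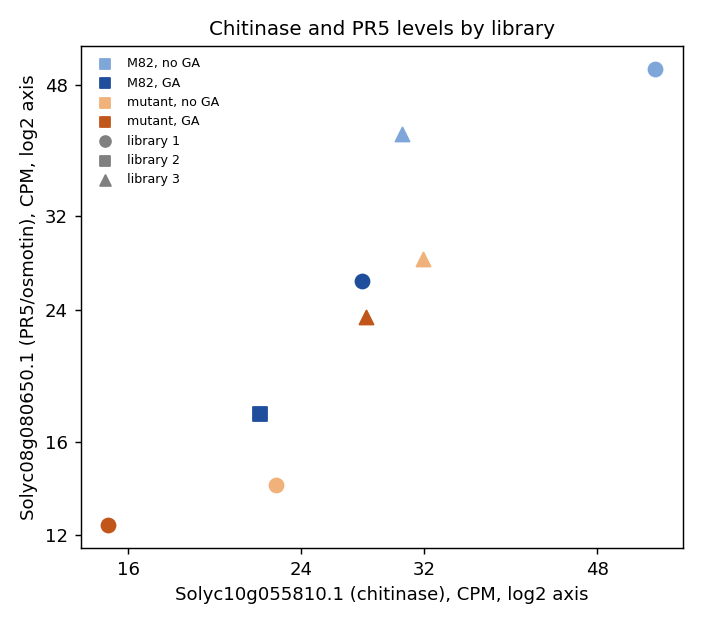
Level of the chitinase gene Solyc10g055810.1 (x axis) against the PR5 gene Solyc08g080650.1 (y axis) in each of the 8 libraries, in TMM-scaled CPM on log2 axes; colours give the group and markers the library number. Pearson r of log2 CPM is 0.911, and in each group the library with more of one transcript also has more of the other.

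Among the 16178 other tested genes that averaged 1 CPM or more, the identifiers whose log2 CPM lay closest to the mean standardised level of the 4 tested PR genes over the 8 libraries were Solyc04g071420.2 (r = 0.974) and Solyc01g087570.2 (r = 0.972). The former ranged from 13.2 to 24.4 CPM and the latter from 17.1 to 49.3 CPM. The most opposed were Solyc04g009440.2 (r = -0.992), at 0.588 to 9.66 CPM, and Solyc11g008250.1 (r = -0.980), at 5.62 to 20.0 CPM. These are the extremes of many genes over few libraries and are given as a description.

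The genes around the PR genes in identifier number, up to 10 on each side on a numbered chromosome, came to 101 identifiers, of which 55 were tested. In the 5 comparisons of the design edgeR called 0 of these 55, against 0% to 0.393% of tested genes. An unadjusted edgeR p under 0.05 was held by 9 of the 55 for genotype with GA, against 14.7% of tested genes. It was held by 4 for GA in the mutant, against 2.67%, and by 1 for the interaction of GA and genotype, against 3.76%. For GA in M82 there were 7 and for genotype without GA 5, where the share over both directions was not computed. DESeq2 called 2 of the 55 between the genotypes with GA, against 3.01% of tested genes, and 0 in the other 4 comparisons, against 0.109% to 2.25%. Over both treatments, edgeR called 2 of the 55 between the genotypes, against 3.05% of tested genes, and DESeq2 called 4, against 6.95%. At an unadjusted edgeR p under 0.05 there were 12 of the 55, against 19.4%. Solyc08g080680.2, close to the PR5 genes in number, was higher in the mutant, at 15.5 ± 1.95 against 6.68 ± 1.06 CPM (SD, n = 4; log2 fold change 1.21, edgeR adjusted p = 0.0132). Solyc01g059940.2, close to the glucanase gene in number, was the other. It had 6 reads in all mutant libraries together and passed the filter only through M82, where its level ran from 0.140 to 16.2 CPM (log2 fold change -5.36, edgeR adjusted p = 0.0279), and 248 of its M82 reads were in library 1 without GA. The tables used here give neither a name.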

How the data were processed

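The table deposited by the authors gives raw read counts for each gene identifier; its other 8 columns, DESeq-normalized per the file headers, were not used. DESeq2 1.6.3, HTSeq 0.6.1p1 and TopHat2 2.0.10 appear in the submitters' processing notes. Which genome build, annotation and counting options were used is not given in the sources used here. The library kit (TruSeq RNA Sample Preparation Kit v2, per the labels' protocols) leaves strand unmarked. For 5 of the 8 count columns a title has the same genotype, treatment and number. The other 3 carry the number 3, found in no title, and were assigned to their group only. Library names use the table's numbers. The 2 libraries of a group differed by far more than sampling noise (chi-square per degree of freedom 34.1 to 82.4).

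Counts were filtered with edgeR's filterByExpr (minimum count 10), which kept 18340 genes, and scaled with TMM. The main test was the robust quasi-likelihood test of edgeR 4.0.16 (R 4.3.3) in a single model with a mean per group and no block. P-values were adjusted over all tested genes (Benjamini-Hochberg), and called means an adjusted p under 0.05. SE was taken as the size of the log2 fold change over the root of its F statistic. DESeq2 1.42.0 was the other tool. The edgeR fit was also run on counts simulated from its own dispersion estimates. That run checks the code and cannot show how the fit handles libraries that lie apart. Intervals and floors cover counting error only, except those of fold changes. All 8 PR genes are named, with the identifier neighbours and the most and least similar genes as described. The genes and lists were chosen with earlier results of these data known. Sequences of these genes were not used here.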

Additional observations from a re-analysis of the deposited data

How the results depend on the processing

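The number of PR genes called was 0 in all 7 comparisons under other scalings (RLE, library totals), no filter, a stricter filter, DESeq2 and either replicate block, and in the 4 comparisons of 2 groups also in a fit of the 4 libraries compared. Leaving out libraries gave 0 to 1 for genotype over both treatments and 0 elsewhere. Of 464 recomputed log2 fold changes, 437 kept their direction and their side of the threshold, 1 passed it and 26 changed sign, and none of the 28 values they were set against was called. With library totals the sign changed for Solyc08g080640.1 (genotype without GA, 0.039) and the chitinase gene (genotype with GA, 0.083). With the number in the table as a replicate block it changed for Solyc00g174340.1 (genotype with GA, 0.028), in a fit where M82 with GA rests on library 1.

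Leaving out libraries gave these ranges where a sign changed. For Solyc00g174340.1 the values ran from -1.87 to 3.23 (GA in the mutant), -1.51 to 0.31 (genotype with GA) and -2.48 to 0.24 (GA over both genotypes). For Solyc08g080640.1 they ran from -0.95 to 0.18 (GA in M82), -0.44 to 0.47 (genotype without GA), -0.72 to 0.31 (genotype with GA), -0.79 to 0.34 (difference of the GA effects) and -0.56 to 0.14 (genotype over both treatments). For Solyc08g080650.1 they ran from -0.77 to 0.36 (GA in the mutant) and -0.78 to 0.15 (genotype with GA). For the chitinase gene they ran from -0.84 to 0.037 (GA in the mutant), -0.66 to 0.22 (genotype with GA) and -0.044 to 0.87 (difference of the GA effects). Where 1 library remains in a group, its spread is taken from the other groups. The cause was not tested.

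Library numbers were not treated as pairs. Log2 ratios of library 1 to the other correlated at -0.022 to 0.421 between groups, or 0.014 to 0.180 leaving out M82 with GA. With the number as a replicate block, number 2 marks M82 library 2 with GA alone, so that library is fitted exactly. M82 with GA then rests on its library 1, and the change of counts in that fit is not a test of pairing. With the block of number 1 against 2 and 3, counts over all genes were higher than with no block. They were 200 against 65 for genotype with GA, 166 against 72 without GA, 33 against 3 for GA in M82 and 921 against 559 for genotype over both treatments. That block, fits without both M82 libraries that lay apart, the overlaps under library totals, the pooled read ratios without 1 library and the comparisons over both treatments or both genotypes were chosen after seeing the data. Counts over all genes, behind the shares of tested genes called, also moved with DESeq2 (108 against 3 for GA in M82, 29 against 0 in the mutant, 412 against 72 and 552 against 65 for genotype without and with GA) and without a filter (92, 9, 338 and 438). Leaving out 1 library gave 0 to 22 for GA in M82, 0 to 4 for GA in the mutant, 1 (without mutant library 3 without GA) to 180 (without M82 library 1 without GA) for genotype without GA, 2 (without M82 library 2 with GA) to 243 (without M82 library 1 without GA) for genotype with GA, and 119 (without mutant library 1 without GA) to 1126 (without M82 library 1 without GA) for genotype over both treatments. With 2 libraries per group and 25 reads or fewer for 4 of the genes, depth and replication limit what could be detected.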
